A study of Homo sapiens with 6 samples.

Results

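The 51 genes described here encode the proteins that license origins of DNA replication, start the replicative helicase, copy DNA at the fork and supply its building blocks. They were chosen by name as the parts of these complexes, and each name was matched to 1 row of a table of 58825 genes through its Ensembl identifier in GENCODE 44. RNA was taken from HGC-27, a human gastric cancer cell line, and sequenced in 6 libraries. In 3 libraries the cells stably overexpressed GC0643, a sequence that the study placed outside the reference genome, and in 3 they carried the vector alone. The overexpressing line was made with a retrovirus and puromycin selection, the same steps are not spelled out for the vector line, and the sources do not say whether a group is more than 1 selected population. The labels were not checked against the level of GC0643, which was not analysed here, and every direction below is as labelled. The study states that its work in vitro was repeated independently, without saying what was repeated for these libraries, and p-values then measure only the spread between these libraries, which may be technical.

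Replication begins when the origin recognition complex (ORC) and CDC6 bind DNA and, with CDT1, load the ring-shaped MCM2-7 helicase as an inactive double ring. The kinase CDC7-DBF4 and cyclin-dependent kinases then bring in CDC45 and the GINS complex, which turn each ring into an active helicase. At the fork, polymerase alpha-primase lays down primers, the clamp loader RFC places the PCNA ring, polymerases delta and epsilon extend the strands, RPA covers single-stranded DNA, and FEN1 and LIG1 finish the lagging strand. Many of these genes are transcribed as cells pass from G1 into S phase under E2F transcription factors, so their RNA is commonly read as a sign of proliferation. In bulk RNA, fewer cells in a phase of the cycle and less RNA per cell cannot be told apart.

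Promoters were read for the letters that E2F factors are known to bind. RefSeq windows on GRCh38.p14, from 250 bases before to 50 bases after the start of the gene, were found for 45 of the 51 genes. Windows were searched on both strands for TTTGGCGC, TTTCGCGC, TTTCCCGC and TTTGCCGC, of which the second can overlap the first on the other strand. At least 1 match stood in 19 of the 45 windows (42.2%), against 3.33% of 27305 promoter windows of the same length over all genes. The CCAAT box (CCAAT) stood in 25 of the 45 (55.6%, against 35.7% of all windows), and the CHR element of genes expressed in G2 and mitosis (TTTGAA or TTCGAA) in 4 (8.89%, against 16.6%). A match describes the letters only. The windows below, 30 bases each and written 5′ to 3′ along the gene, are shown because 1 or another of the E2F forms precedes both of a pair of subunits whose fold changes differed in sign (MCM6 and MCM7, POLA1 and POLA2), and because they precede CDT1 and PCNA, to which the results return. Capitals mark the E2F match.
MCM6, first (chr2:135876577-135876606, minus strand): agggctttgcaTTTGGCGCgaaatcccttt
MCM6, second (chr2:135876515-135876544, minus strand): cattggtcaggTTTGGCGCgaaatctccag
MCM7 (chr7:100101566-100101595, minus strand): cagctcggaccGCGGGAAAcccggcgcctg
POLA1 (chrX:24693770-24693799, plus strand): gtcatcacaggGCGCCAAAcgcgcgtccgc
POLA2 (chr11:65261898-65261927, plus strand): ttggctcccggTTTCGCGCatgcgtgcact
PCNA (chr20:5126663-5126692, minus strand): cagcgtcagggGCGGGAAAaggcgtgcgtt
CDT1 (chr16:88803743-88803772, plus strand): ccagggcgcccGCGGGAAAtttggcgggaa
MCM6 carried its matches at positions −152 and −90 from the start, and each was overlapped by GCGCGAAA, the second motif read on the other strand. The match of CDT1 began at −35 and that of PCNA at −59. The 19 genes with an E2F match had a median log2 fold change of 0.10, and the 26 without one had 0.31. The median GC content of their transcripts was 47.5% and 43.9%. After a correction for GC content, described below, the median log2 fold changes were −0.003 and 0.080. How much of the difference goes with GC content was not tested.

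All 51 genes were expressed, with between 184 and 17414 counts in any library, and all passed edgeR's filter on low counts. Pseudogenes of these genes held at most 0.289% of the counts of their parent. Total counts lay between 20376722 and 24069166 per library, and the 51 genes took between 0.513% and 0.587% of them. Of the labelled identity, the epithelial markers EPCAM, CDH1, KRT7, KRT18 and KRT19 (5 of a list of 6) were below 1 CPM (CPM being counts scaled by the TMM-adjusted library total) in every library, as were all 6 markers of differentiated gastric epithelium (TFF2, GKN1 and PGC at 0). The remaining epithelial marker, KRT8, had between 3.87 and 7.84 CPM. All 6 genes of a fibroblast list, with COL1A1 first, were above 1 CPM, summing to between 1958 and 2168 CPM with GC0643 overexpression and between 1878 and 2131 CPM with the vector. Most of that sum was COL1A1, and single genes of the list moved with the groups. At an unadjusted p under 0.05 (edgeR), 4 of 6 were higher with GC0643 overexpression (against 13.1% of all genes). Of these, 3 were without overlap (against 11.8% of all genes). The list median was 0.47 (log2), and the other 2 genes were negative, the lower at −0.36. After a correction for GC content, described below, 3 of 6 were higher at that p (against 2.83% of all genes), with a median of 0.23. LUM, 1 of the genes without overlap, had 139, 150 and 131 CPM with GC0643 overexpression and 75.7, 109 and 58.6 CPM with the vector. No marker of endothelium or erythroid cells was above 1 CPM, nor was PTPRC of lymphocytes, and PECAM1, CD3E, MS4A1 and HBB were at 0. The part of these lists in the results was not tested.

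**Figure D1:**
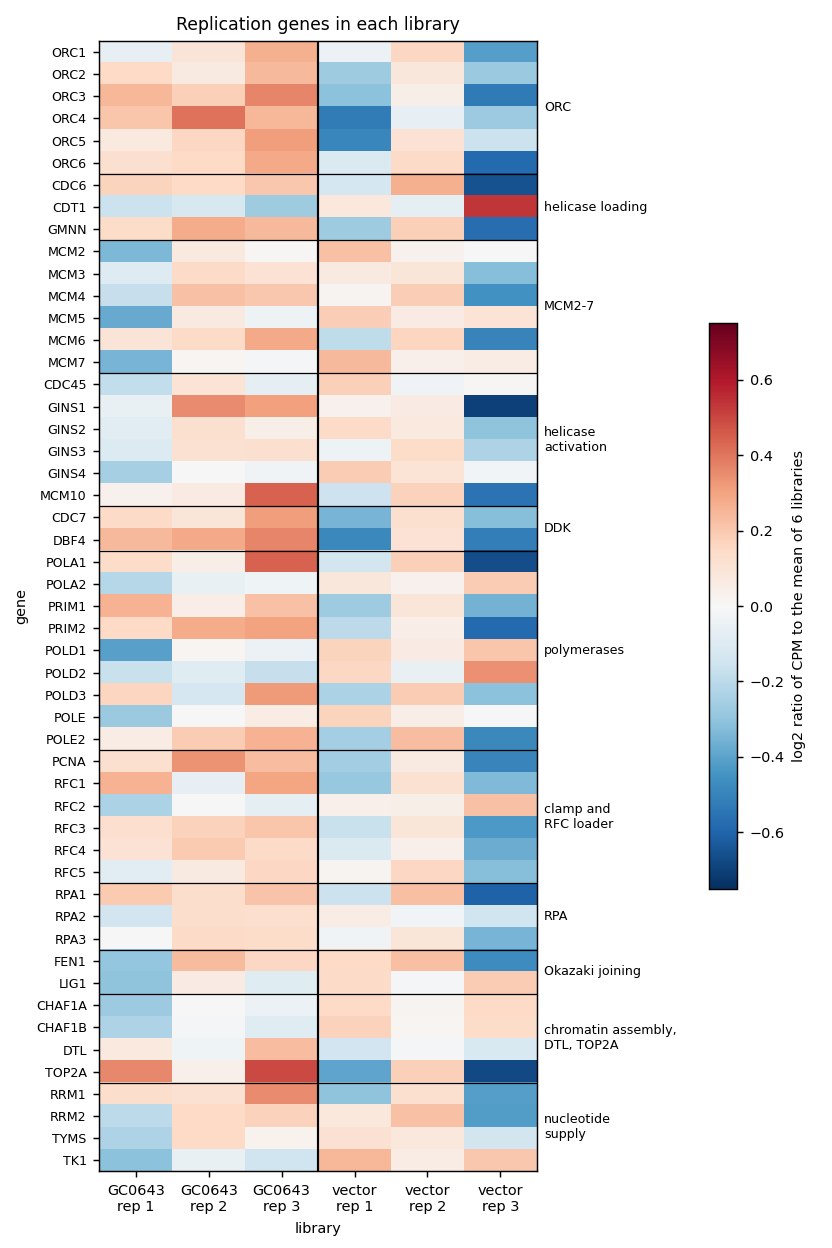
CPM of each library relative to the 6-library mean, as a log2 ratio (colour), for the 51 replication genes (rows, grouped by complex) in each library (columns). Vector control replicate 3 is the lowest library for 31 of the 51 genes, while vector control replicate 2 looks like the GC0643 libraries in most rows.

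No replication gene differed between the groups at an adjusted p under 0.05 (quasi-likelihood test of edgeR, adjusted over 19528 genes), and none did so by the likelihood ratio test or DESeq2. The background was the same by the quasi-likelihood test, with 0% of all genes called. The smallest adjusted p of any replication gene was 0.26. At an unadjusted p under 0.05, counts of 12 genes were higher with GC0643 overexpression (23.5% of 51, against 13.1% of all genes) and 4 were lower (7.84%, against 5.26%). The 12 were ORC3, ORC4, GMNN, MCM6, CDC7, DBF4, PRIM1, PRIM2, PCNA, RFC3, TOP2A and RRM1, and the 4 were CDT1, POLD1, POLD2 and TK1. With DESeq2's size factors in place of TMM the counts were 10 and 4, and over all genes the split went from 2553 higher and 1028 lower to 2194 and 1445. No replication gene passed a fold change of 1.5 together with that p, which 1.6% of all genes did upward and 0.871% downward. The values of the 3 libraries of each group did not overlap for 7 genes on the higher side (13.7%, against 11.8% of all genes) and for 9 on the lower side (17.6%, against 10.5%). In sign, 35 log2 fold changes were positive and 16 negative, with a median of 0.18 against 0.02 over all genes. Fold changes were small, between 0.765 and 1.48, with standard errors of 0.12 to 0.19 on the log2 scale.

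A pair of measured facts moved with these differences. The first was a library. Set against the 6-library mean, the median log2 ratio of the replication genes was −0.05, 0.10 and 0.20 with GC0643 overexpression (replicates 1, 2 and 3), and −0.04, 0.09 and −0.32 with the vector. Vector control replicate 3 was therefore below the other 5, and vector control replicate 2 lay among the GC0643 libraries. By this median vector control replicate 1 did so too, just above the lowest of them. For 44 of the 51 genes, vector control replicate 2 was at or above the lowest GC0643 library, which held for 26 genes in replicate 1 and for 16 in replicate 3. These counts look at 1 side only. Each includes the 9 genes for which all vector libraries lay above all GC0643 libraries, so they do not measure likeness alone. Without vector control replicate 2, 22 replication genes were higher and 3 lower at an adjusted p under 0.05 (edgeR), against 14.7% and 4.36% of all genes, and the median was 0.29. The 3 lower genes were CDT1, POLD2 and TK1. Without vector control replicate 3 the median was 0.06, with 28 positive and 23 negative fold changes and none past the adjusted p. Of the 16 genes with an unadjusted p under 0.05, 9 no longer had one without that library, 9 without vector control replicate 1, and 9, 6 and 4 when GC0643 overexpression replicate 3, 1 or 2 was left out, and 0 without vector control replicate 2.

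The second was the GC content of the transcripts. Across the 51 genes, Spearman's rho of the log2 fold change with GC content was −0.87, and across 19401 genes it was −0.67. Genes share their libraries and are not independent replicates, so these values are a description. The 25 genes below the median GC content of 45.9% all had positive fold changes, with a median of 0.34, and they held all 12 genes that were higher at an unadjusted p under 0.05. Among the 25 above it, 9 were positive and 16 negative, with a median of −0.16, and they held all 4 lower genes. The GC-poor genes were also the less abundant ones, with a median of 17.4 TPM (counts per exon length, scaled to the same total in every library) against 64.3 TPM. All genes of the same GC content followed a like course. From 40% to 45% GC, the median was 0.34 over 16 replication genes and 0.27 over all genes, and from 55% to 60% it was −0.21 over 7 and −0.18 over all genes.

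**Figure D2:**
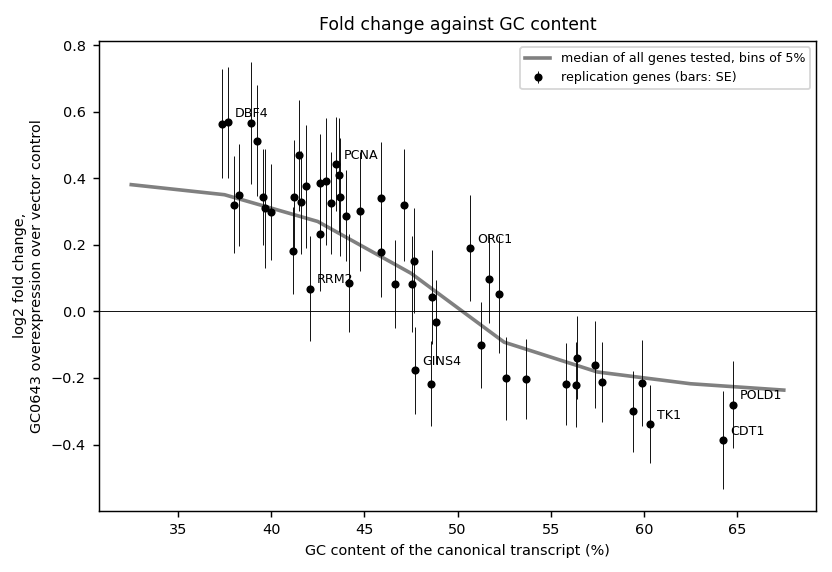
Log2 fold change of GC0643 overexpression over vector control (vertical axis, bars are SE) against the GC content of the canonical transcript in percent (horizontal axis) for the 51 replication genes, with the median of all genes tested in bins of 5% as a grey line. The points run along the line, from positive values below 45% GC to negative values above 55%.

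After a loess correction for GC content in each library, 29 log2 fold changes were positive and 22 negative, with a median of 0.03. At an unadjusted p under 0.05, DBF4 and PCNA were then higher (3.92% of 51, against 2.83% of all genes), and GINS4 and CHAF1B were lower (3.92%, against 3.24%). No gene had an adjusted p under 0.05 in this fit (edgeR). The correction made 43 of the 51 fold changes smaller and turned the sign of 6. When it was made without vector control replicate 2 as well, 9 genes were higher and 2 lower at an unadjusted p (17.6% and 3.92%, against 6.81% and 5.28% of all genes), and again none passed the adjusted p. The direction of the GC relation was not the same in the vector libraries. In the log2 ratio to the mean of the 6 libraries, rho across the 51 genes was −0.84, −0.45 and −0.83 with GC0643 overexpression (replicates 1, 2 and 3), and 0.87, −0.36 and 0.65 with the vector. The part of GC content and of single libraries in the group difference was not tested.

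**Figure D3:**
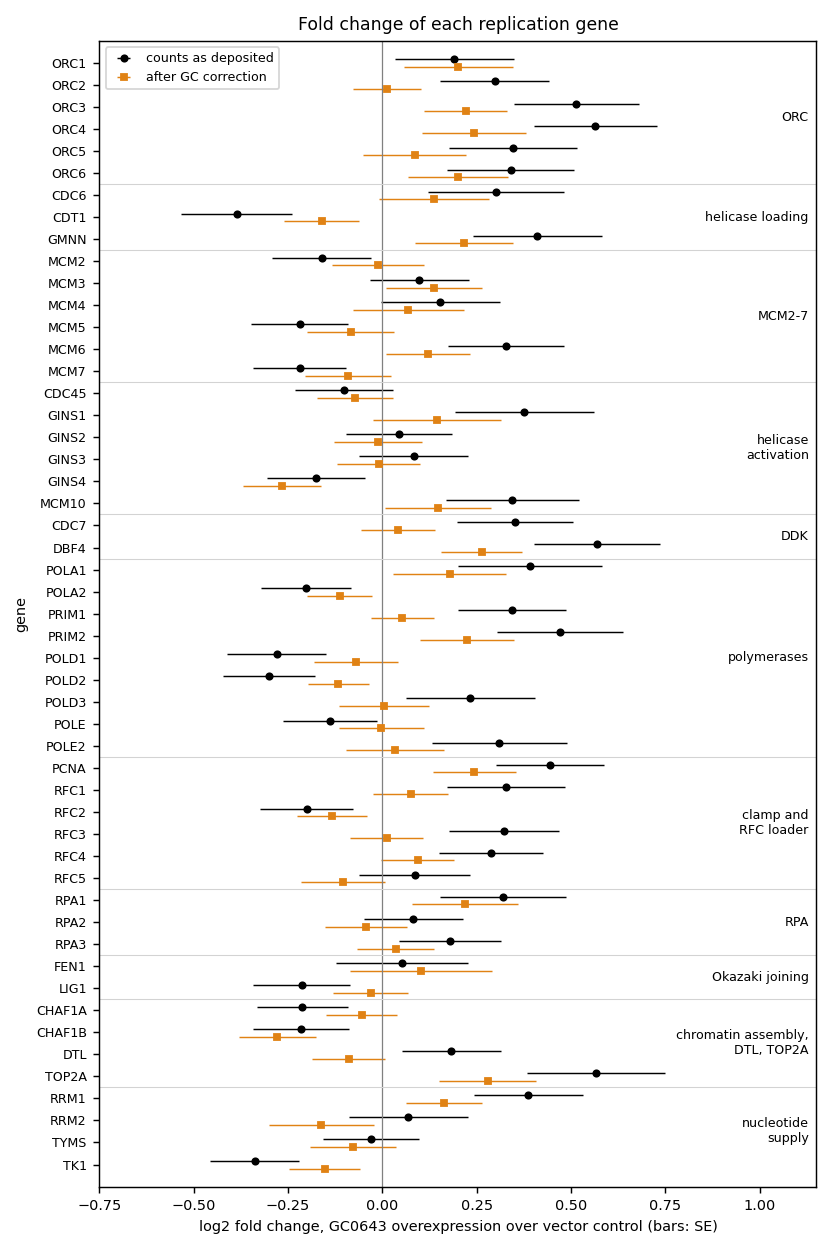
Log2 fold change with its SE (horizontal axis) for each of the 51 replication genes (vertical axis, grouped by complex), from the counts as deposited (black) and after GC correction (orange). ORC stands to the right of 0 as a whole, from 0.19 to 0.56, polymerases and MCM2-7 lie on both sides, and most orange points are nearer to 0 than their black partner.

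All 6 ORC genes had higher mean counts with GC0643 overexpression, with log2 fold changes from 0.19 to 0.56 and a median of 0.34, and 2 of them (ORC3 and ORC4) had an unadjusted p under 0.05. ORC was the largest complex in which no member was negative, and after GC correction its 6 values were still all positive (0.01 to 0.24, median 0.20). ORC4, a subunit of the core ATPase ring (chromosome 2, 147930396 to 148021604), had 15.1, 17.3 and 15.5 CPM with GC0643 overexpression (replicates 1, 2 and 3, in this order throughout) and 9.06, 12.5 and 10.8 CPM with the vector. Every GC0643 library was above every vector library. The log2 fold change of ORC4 was 0.56 ± 0.16 (SE, edgeR adjusted p = 0.26), and 0.24 after GC correction. ORC1, the ATPase subunit whose level follows the cell cycle (chromosome 1, 52372829 to 52404423), had 33.5, 37.4 and 42.1 CPM against 33.9, 38.9 and 26.2 CPM. Here the groups overlapped, and 2 of the 3 vector libraries lay above the lowest GC0643 library. Its log2 fold change of 0.19 ± 0.16 (SE, edgeR adjusted p = 0.48) was 0.20 after GC correction, but 0.33 without vector control replicate 2, 0.04 without replicate 3 of that group and 0.11 without GC0643 overexpression replicate 3.

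Per length, the ORC genes spanned a range from 24.4 ± 4.01 TPM for ORC1 to 3.24 ± 0.76 TPM for ORC4 (SD, n = 6 libraries), a ratio of 7.54. The order was ORC1, ORC6, ORC2, ORC5, ORC3 and ORC4, and only the step from ORC3 to ORC4 was wider than the ranges of the libraries. ORC4 had the lowest mean of all 51 genes on this scale, but its range overlapped that of POLA1 (3.32 ± 0.84 TPM). The scale uses the union of all annotated exons as the length, 8916 bases for ORC4. For ORC6 the union has 4309 bases and the canonical transcript 1615, while for ORC1 both have 3121. The order of ORC1 and ORC6 thus depends on the length chosen.

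The genes that load the helicase differed in sign. CDC6, the ATPase that joins ORC, had a log2 fold change of 0.30 (edgeR adjusted p = 0.34), while CDT1, which carries the MCM ring to the origin, and GMNN (geminin), the protein that binds and holds CDT1 back, stood on opposite sides. CDT1 (chromosome 16, 88803789 to 88809258) had 122, 126 and 113 CPM with GC0643 overexpression and 144, 130 and 198 CPM with the vector. All vector libraries were above all GC0643 libraries, with vector control replicate 3 the highest. The log2 fold change was −0.39 ± 0.15 (SE, edgeR adjusted p = 0.26), −0.16 after GC correction, −0.51 without vector control replicate 2 (adjusted p = 0.023) and −0.19 without vector control replicate 3 (adjusted p = 0.54).

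GMNN (chromosome 6, 24774931 to 24786099) had 33.3, 36.8 and 35.9 CPM with GC0643 overexpression and 25.2, 34.3 and 20.3 CPM with the vector. It was low in vector control replicates 1 and 3 only, and vector control replicate 2 lay above the lowest GC0643 library. The difference was 0.41 on the log2 scale (SE 0.17, edgeR adjusted p = 0.26), 0.22 after GC correction, 0.64 without vector control replicate 2 (adjusted p = 0.011) and 0.24 without vector control replicate 3 (adjusted p = 0.53). GMNN was singled out after its values were seen. In TPM, CDT1 was 3.29, 3.07 and 2.84 times GMNN in the GC0643 libraries and 5.13, 3.40 and 8.74 times in the vector libraries. The ratio was thus lower in every GC0643 library, but vector control replicate 2 was close to them. The GC content was 64.3% for CDT1 and 43.6% for GMNN, above and below the median of the 51 genes.

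**Figure D4:**
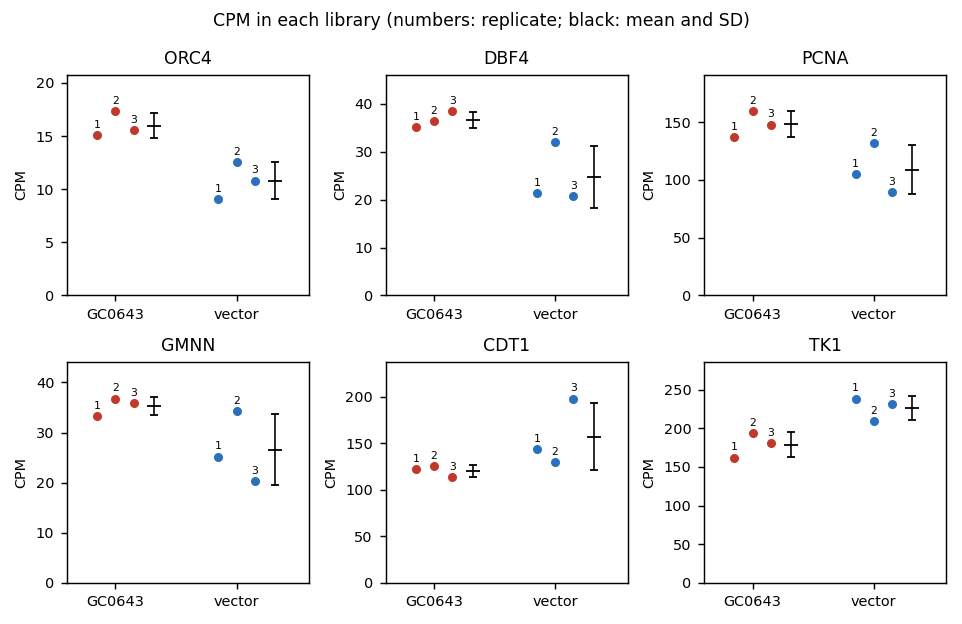
CPM (vertical axes, from 0) of 6 genes in each library, with red points for GC0643 overexpression, blue points for vector control, the replicate number above each point, and mean and SD in black. ORC4, DBF4 and PCNA are higher in every GC0643 library, CDT1 and TK1 are lower in every GC0643 library, and GMNN overlaps through vector control replicate 2.

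The 6 genes of the MCM2-7 helicase divided evenly, with 3 positive and 3 negative log2 fold changes and a median of −0.03. MCM6, MCM4 and MCM3 were on the positive side (0.33, 0.15 and 0.10), and MCM2, MCM7 and MCM5 on the negative side (−0.16, −0.22 and −0.22). The positive members had 43.2%, 47.7% and 51.7% GC and the negative ones 57.4%, 55.8% and 56.3%. After GC correction the 6 values lay between −0.09 and 0.14, with the same signs. MCM6 (chromosome 2, 135839626 to 135876443) had 95.7, 99.1 and 109 CPM with GC0643 overexpression and 78.6, 100 and 63.4 CPM with the vector. Vector control replicate 2 lay among the GC0643 libraries. The log2 fold change of 0.33 (SE 0.15) had an adjusted p of 0.27 (edgeR), and it was 0.12 after GC correction, 0.51 without vector control replicate 2 (adjusted p = 0.018) and 0.17 without vector control replicate 3 (adjusted p = 0.59). MCM7 (chromosome 7, 100092233 to 100101940) had 548, 706 and 695 CPM against 827, 717 and 724 CPM. All vector libraries were higher, and GC0643 overexpression replicate 1 was the lowest. The difference was −0.22 ± 0.12 (SE, edgeR adjusted p = 0.32), and −0.11 without that library.

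Although the 6 MCM proteins form 1 ring with 1 copy of each, their RNA levels per length were unequal. MCM7 had the highest mean of all 51 genes at 305 ± 33.5 TPM (SD, n = 6 libraries), with a range that overlapped that of TYMS (300.3 TPM). In the ring it was followed by MCM3 at 185 ± 21.3 TPM, and MCM6 was the lowest at 47.6 ± 9.44 TPM. The ranges of MCM7, MCM3 and MCM2 (88.0 TPM) did not overlap, while those of MCM2, MCM4, MCM5 and MCM6 did from each to the next. The exon unions had 4715 bases for MCM2, 9852 for MCM4 and 7268 for MCM5, and the canonical transcripts 3434, 4062 and 3458. The order of MCM2, MCM4 and MCM5 thus depends on the length chosen. MCM7 was 4.77, 5.94 and 5.31 times MCM6 in the GC0643 libraries and 8.78, 5.96 and 9.52 times in the vector libraries. MCM2 shares 23.6% of its exon bases with an antisense RNA, ENSG00000285600, and no counting options are stated for these libraries. The options that the study gives for its tumour RNA-seq set no strand and count a read for every gene it overlaps. Under such options its reads and those of its partner cannot be told apart there.

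**Figure D5:**
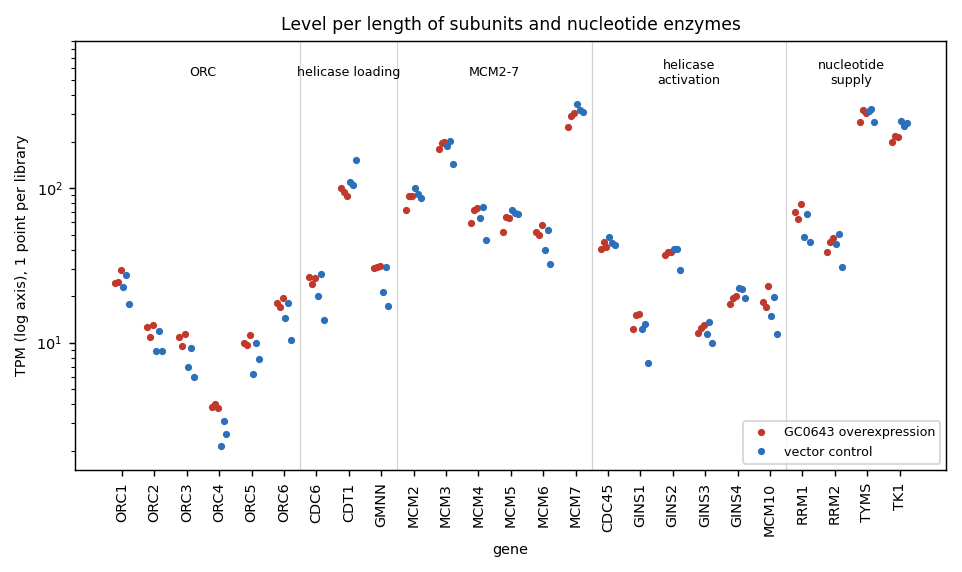
TPM on a log axis (vertical) for 25 genes of the ORC, helicase loading, MCM2-7, helicase activation and nucleotide supply groups (horizontal), with 1 point per library in red (GC0643 overexpression) or blue (vector control). MCM7 and TYMS stand near 300 TPM and ORC4 near 3 TPM, and the spread between genes is far wider than the spread between groups.

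Helicase activation had 4 positive and 2 negative values and no gene at an unadjusted p under 0.05. The smallest p was that of GINS1, a subunit of the GINS tetramer (chromosome 20, 25391008 to 25452700). It had 43.9, 58.1 and 56.3 CPM with GC0643 overexpression and 46.5, 47.6 and 28.0 CPM with the vector, and the groups overlapped. Vector control replicate 3 was alone in its low value, and the log2 fold change was 0.38 ± 0.19 (SE, edgeR adjusted p = 0.28), 0.14 after GC correction and 0.16 without that library. The other GINS subunits lay at 0.04 (GINS2), 0.08 (GINS3) and −0.18 (GINS4), CDC45 at −0.10, and MCM10, which helps the helicase start, at 0.34. GINS4 moved away from 0 with the GC correction, to −0.27. It shares 21.0% of its exon bases with an antisense RNA, ENSG00000253174. In TPM, CDC45 (43.7) and GINS2 (37.4) were above GINS4 (20.3), MCM10 (17.4), GINS1 (12.6) and GINS3 (12.0). The exon unions used as lengths had 8017 bases for GINS1, 5108 for GINS3 and 5447 for GINS4. Their canonical transcripts have 3311, 2200 and 3770 bases, so differences among these GINS genes depend on the length chosen.

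Both subunits of the kinase that fires licensed origins were higher at an unadjusted p under 0.05. DBF4, its regulatory subunit (chromosome 7, 87876216 to 87909553), had 35.2, 36.3 and 38.4 CPM with GC0643 overexpression and 21.3, 32.1 and 20.8 CPM with the vector. The groups did not overlap, with vector control replicate 2 nearest to the GC0643 libraries. DBF4 had the largest log2 fold change of the 51 genes, 0.57 ± 0.17 (SE, edgeR adjusted p = 0.26), and it stood at 0.26 after GC correction, at 0.80 without vector control replicate 2 (adjusted p = 0.010) and at 0.45 without vector control replicate 3 (adjusted p = 0.37). CDC7, the catalytic subunit, had a log2 fold change of 0.35 ± 0.15 (SE, edgeR adjusted p = 0.27), which GC correction took to 0.04.

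Among the polymerase genes, 5 log2 fold changes were positive and 4 negative, and subunits of 1 enzyme differed in sign. In polymerase alpha-primase, the catalytic subunit POLA1 (0.39) and both primase subunits PRIM1 (0.34) and PRIM2 (0.47) were positive, and the accessory subunit POLA2 was at −0.20. In polymerase delta, the catalytic POLD1 (−0.28) and POLD2 (−0.30) were negative and POLD3 was at 0.23. In polymerase epsilon, the catalytic POLE was at −0.14 and POLE2 at 0.31. GC content was split the same way: the negative members had between 53.7% and 64.8% GC and the positive ones between 39.6% and 42.9%. After GC correction the 9 values lay between −0.12 and 0.22 around a median of 0.00.

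PRIM2, the large primase subunit (chromosome 6, 57314805 to 57646850), had 20.8, 22.7 and 23.1 CPM with GC0643 overexpression and 16.3, 19.4 and 12.5 CPM with the vector, without overlap. Its SE was 0.17 and its edgeR adjusted p 0.26, and the log2 fold change was 0.22 after GC correction and 0.31 without vector control replicate 3. POLD2 had 314, 331 and 313 CPM against 394, 340 and 448 CPM, again without overlap but with vector control replicate 2 close to the GC0643 libraries (SE 0.12, edgeR adjusted p = 0.26). POLD1 had 110, 148 and 142 CPM against 164, 152 and 169 CPM (SE 0.13, edgeR adjusted p = 0.27). POLD1 and POLD2 are named with their values because they are among the 4 genes that were lower. Per length, POLD2 (95.9 TPM) and POLD1 (64.3 TPM) stood above POLD3 (8.20 TPM), and POLD2 was 9.38, 12.1 and 8.39 times POLD3 in the GC0643 libraries and 15.5, 9.93 and 18.5 times in the vector libraries. POLA2 shares 16.8% of its exon bases with ENSG00000285816, a protein-coding gene on the same strand, and its value is uncertain for that reason. The same holds for PRIM1, which shares 10.9% with ENSG00000285625 and 4.2% with NACA. These partners had 33566 and 76997 counts over all libraries, against 6237 for PRIM1. POLD1 (18894 counts) shares 8.63% with ENSG00000142539 (4145 counts), also protein-coding and on the same strand.

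PCNA, the sliding clamp (chromosome 20, 5114953 to 5126626), had 137, 159 and 148 CPM with GC0643 overexpression and 105, 132 and 89.7 CPM with the vector. The groups did not overlap, and the gap between GC0643 overexpression replicate 1 and vector control replicate 2 was narrow. The log2 fold change was 0.44 ± 0.14 (SE, edgeR adjusted p = 0.26), 0.24 after GC correction, 0.61 without vector control replicate 2 (adjusted p = 0.011) and 0.31 without vector control replicate 3 (adjusted p = 0.43). Of the clamp loader, RFC1, RFC3, RFC4 and RFC5 lay at 0.33, 0.32, 0.29 and 0.09 and RFC2 at −0.20, and only RFC3 had an unadjusted p under 0.05. PCNA was at 198 ± 41.3 TPM (SD, n = 6 libraries) and the RFC genes between 11.8 TPM (RFC1, the large subunit) and 78.0 TPM (RFC2). The 3 RPA genes were all positive, at 0.32 (RPA1), 0.08 (RPA2) and 0.18 (RPA3), and none had an unadjusted p under 0.05. RPA1, the DNA-binding large subunit (chromosome 17, 1829702 to 1900082), had 111, 107 and 113 CPM against 87.1, 114 and 64.0 CPM. Vector control replicate 2 was the highest of all 6 libraries (SE 0.17, edgeR adjusted p = 0.29), and the log2 fold change was 0.55 without it (adjusted p = 0.018) and 0.13 without vector control replicate 3 (adjusted p = 0.70). The RPA genes were close to each other per length, from 39.1 to 55.2 TPM with ranges that overlapped from each to the next. CDC7 and DBF4 were also close, at 18.1 and 14.4 TPM.

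Of the genes that finish the lagging strand, FEN1, the flap endonuclease, lay at 0.05 and LIG1, the ligase, at −0.21 on the log2 scale. LIG1 (chromosome 19, 48115445 to 48170603) had 75.1, 96.7 and 87.1 CPM with GC0643 overexpression and 102, 92.0 and 106 CPM with the vector. The groups overlapped through GC0643 overexpression replicate 2 (SE 0.13, edgeR adjusted p = 0.35), and the value was −0.03 after GC correction and −0.12 without GC0643 overexpression replicate 1. Both subunits of the histone chaperone CAF-1 were negative with no overlap between the groups, CHAF1A at −0.21 and CHAF1B at −0.22 (edgeR adjusted p = 0.32 and 0.34). After GC correction CHAF1A was at −0.06, while CHAF1B, at −0.28, was farther from 0. DTL, the substrate receptor of the ligase that removes CDT1 in S phase, lay at 0.18.

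TOP2A, the topoisomerase that untangles replicated DNA and peaks in G2 and mitosis (chromosome 17, 40388525 to 40417896), had 347, 278 and 382 CPM with GC0643 overexpression and 205, 306 and 169 CPM with the vector. Vector control replicate 2 lay above GC0643 overexpression replicate 2, so the groups overlapped. With a log2 fold change of 0.57 ± 0.18 (SE, edgeR adjusted p = 0.26), TOP2A varied more between libraries than the other members of its group, and the value was 0.28 after GC correction, 0.84 without vector control replicate 2 (adjusted p = 0.010) and 0.38 without vector control replicate 3 (adjusted p = 0.39).

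The enzymes of nucleotide supply differed among themselves. RRM1, the large subunit of ribonucleotide reductase, had a log2 fold change of 0.39 ± 0.15 (SE, edgeR adjusted p = 0.26), and RRM2, the small subunit that limits the enzyme to S phase, 0.07 (SE 0.16, edgeR adjusted p = 0.81). Their GC content was nearly the same, 42.6% and 42.1%, and the correction left 0.16 and −0.16. In TPM, RRM1 was 1.82, 1.41 and 1.64 times RRM2 in the GC0643 libraries and 1.11, 1.35 and 1.45 times in the vector libraries, which overlap. The exon unions had 4233 bases for RRM1 and 9153 for RRM2, and the canonical transcripts 3142 and 3258. Which gene stands higher thus depends on the length chosen. Thymidylate synthase TYMS was at −0.03, with 286, 373 and 343 CPM against 364, 355 and 305 CPM. TYMS shares 39.9% of its exon bases with ENOSF1 on the opposite strand, and under such options reads of both genes cannot be told apart there.

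TK1, the thymidine kinase of the salvage route (chromosome 17, 78174091 to 78187233), had 162, 193 and 181 CPM with GC0643 overexpression and 238, 209 and 231 CPM with the vector. Every vector library was above every GC0643 library. The log2 fold change was −0.34 ± 0.12 (SE, edgeR adjusted p = 0.26), −0.15 after GC correction, −0.39 without vector control replicate 2 (adjusted p = 0.032) and −0.33 without vector control replicate 3 (adjusted p = 0.41). TYMS and TK1 were among the most abundant of the 51 genes per length, at 300.3 ± 26.8 TPM and 236 ± 30.6 TPM (SD, n = 6 libraries), and RRM1 and RRM2 were at 62.1 and 42.7 TPM.

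Other genes of replication and of the cell cycle around it, 89 in 6 lists, were read for comparison, and all were tested. The lists include 23 regulators of the step from G1 to S and 12 mitotic genes. An unadjusted p under 0.05 was found for 22 higher and 5 lower genes (24.7% and 5.62%, against 13.1% and 5.26% of all genes), and none had an adjusted p under 0.05 (edgeR). After GC correction 2 were higher and 3 lower (2.25% and 3.37%, against 2.83% and 3.24% of all genes). Origin firing and fork protection had 5 higher and 1 lower of 18 with a median of 0.24, and its smallest p was that of TIPIN, which steadies the fork (0.53, edgeR adjusted p = 0.26). Further polymerase, clamp and primer removal genes had 4 higher and 0 lower of 13 (median 0.14), led by the topoisomerase TOP2B (0.53). Replication-coupled chromatin genes had 2 higher and 0 lower of 10 (median 0.22), led by MMS22L (0.43). Further nucleotide supply genes had 2 higher and 1 lower of 13 (median 0.01), led by the kinase CMPK1 (0.41). Regulators of the step from G1 to S, with E2F factors, RB proteins and cyclins, had 4 higher and 3 lower of 23 (median 0.07), led by the RB relative RBL2 (0.48). Mitotic genes had 5 higher and 0 lower of 12 (median 0.34), led by CDK1 (0.54).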

How the data were processed

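The deposited file holds counts per Ensembl gene. Per the labels, the authors used NEBNext Ultra libraries, Trimmomatic 0.32, HISAT2 2.1.0, featureCounts 2.0.0 and GRCh38. Counting options are stated for the study's tumour RNA-seq (no strand, reads counted for every overlapping gene) and not for these libraries.

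Counts were filtered (filterByExpr), scaled by TMM and tested for group with edgeR 4.0.16's quasi-likelihood test, two-sided, in R 4.3.3 and adjusted by Benjamini-Hochberg over 19528 genes. The code was tested on simulated data. Of 58825 genes, 58472 matched GENCODE 44, which gave exon unions for TPM and the canonical transcript's GC content. TPM were computed here, and an order of genes by TPM depends on the exon-union length. GC correction used loess per library (span 0.3, prior count 1). The biological coefficient of variation was 14.8%.

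Genes given with values in every library were the smallest p in each direction and complex and the extremes of level per length. POLD1, POLD2, GMNN, TYMS, RRM1 and other genes named beyond that rule were chosen after their values were seen. The members and lists were chosen with earlier results of these data known. Alternatives were the likelihood ratio test, DESeq2 1.42.0, its size factors, library size alone, 2 filters, a replicate block, GC and length corrections, and leaving out each library. Promoters were RefSeq's, with the first listed window used per gene. GC0643 was not analysed here.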

Additional observations from a re-analysis of the deposited data

How the results depend on the processing

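The 51 replication genes had 0 calls at an adjusted p under 0.05 by the likelihood ratio test, DESeq2, DESeq2's size factors, library size alone, a filter of CPM over 1 in at least 3 libraries, the GC and length corrections and the replicate block. With no filter on low counts, 20 genes were higher at an unadjusted p under 0.05 (39.2%, against 9.02% of all genes) and 2 passed the adjusted p (3.92%, against 0.444% higher and 0.174% lower). The length correction gave 12 higher and 5 lower genes (23.5% and 9.8%, against 8.05% and 8.69% of all genes). Leaving out each library in turn, the count of genes higher at an unadjusted p lay between 6 (11.8%, against 6.36% of all genes, GC0643 overexpression replicate 3 left out) and 26 (51%, against 22.8%, vector control replicate 2 left out), and the count lower between 1 (1.96%, against 1.84%, in the first of these fits) and 7 (13.7%, against 14.2%, in the second), with medians from 0.06 to 0.29. The count past the adjusted p lay between 0 and 25. The 25 came without vector control replicate 2, with 22 higher and 3 lower (43.1% and 5.88%, against 14.7% and 4.36% of all genes). The count past the fold change of 1.5 lay between 0 and 8, and its share over all genes was not counted in these fits. GC correction gave 2 higher and 2 lower genes (3.92% each, against 2.83% and 3.24% of all genes). With GC correction and each library left out, between 0 and 9 genes were higher. The 0 came without vector control replicate 1 (against 1.3% of all genes) or GC0643 overexpression replicate 3 (against 1.65%), the 9 without vector control replicate 2 (17.6%, against 6.81%). Between 0 and 4 were lower. Here the 0 came without vector control replicate 1 (against 1.9%) or GC0643 overexpression replicate 1 (against 2.76%), the 4 without vector control replicate 3 (7.84%, against 2.29%). The median lay between −0.042 (without vector control replicate 3) and 0.093, with 0.0061 when GC0643 overexpression replicate 3 was left out and −0.016 when replicate 2 of that group was. In these fits LIG1 turned to 0.056 and MCM7 to 0.019 (without GC0643 overexpression replicate 1), and GINS1 to −0.021 (without vector control replicate 3). The sign of 43 of the 51 genes was kept when any 1 library was left out, and that of 8 was not. The cause of these changes was not tested.

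The replicate numbers gave no sign of pairing: the deviations of same-numbered libraries correlated at −0.21, −0.03 and −0.31, and the libraries did not correlate best with their own number. With 3 libraries in a group, such correlations cannot show that the libraries were unpaired. With the replicate block, 10 genes were higher and 1 lower at an unadjusted p (19.6% and 1.96%, against 9.96% and 1.61% of all genes). In that fit 2 passed the fold change of 1.5, a rule whose share over all genes was not counted there. The block with GC correction gave 1 and 1 (1.96% each, against 2.01% and 1.99%). With 3 libraries in a group, the standard errors of 0.12 to 0.19 (log2) limit what can be seen.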
